A study of Mus musculus with 2 samples.

Results

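The genes described here store, import, export and sense iron or release it from heme. They are 9 genes, taken as the rows of the gene tables whose identifier carries the symbol Ftl1, Fth1, Tfrc, Trf, Slc40a1, Slc11a2, Ireb2, Aco1 or Hmox1 in GENCODE release M21, out of 55536 genes in those tables. All 9 were found in both libraries. They were chosen by name with their TPM and counts in these libraries already known, so their levels are given as a description, with no test.

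The study profiled polyadenylated RNA of the mouse neural tube, the embryonic precursor of brain and spinal cord, at embryonic day 12.5. It has 1 group of 2 libraries from strain B6NCrl, with no treatment, mutant or other tissue to compare with. Replicate 1 was made from the pooled neural tubes of 120 embryos and replicate 2 from those of 88 embryos, both sexes together, and each library started from 10 ng of RNA. RNA was primed with oligo-dT, amplified with a SMARTer Ultra Low kit, cut by Nextera tagmentation and mixed with ERCC spike-ins (synthetic RNAs added at known amounts). A pool hides the spread between embryos, and an SD over 2 libraries measures the spread between pools and library preparations. Levels are in TPM, a transcript abundance in which reads are divided by transcript length and scaled to a fixed sum in each library.

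Iron enters most cells when transferrin, the iron carrier of blood and brain fluid, binds the transferrin receptor and is taken up into endosomes, where a divalent metal transporter moves the iron into the cytosol. Iron that is not used is stored in ferritin, a shell built from heavy and light chains, and surplus iron leaves through ferroportin. A pair of iron regulatory proteins binds a short hairpin, the iron responsive element, in several of these mRNAs: bound near the start of an mRNA it blocks translation, and bound in the 3′ untranslated region of the transferrin receptor mRNA it protects the mRNA from decay. An RNA level therefore does not give the amount of ferritin or ferroportin protein.

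The hairpins that this control acts through are printed first, because the genes divide by them. The search was for a C, any 5 bases, then the loop CAGTGN (N is any base), with at least 4 of the 5 positions between the bulged C and the loop pairing with the 5 bases after the loop, G-T pairs allowed. It was run on the sense strand of GENCODE M21 transcripts, since the element works as RNA, and sites were placed on mouse assembly mm10 through the M21 annotation. Each site found in the 9 genes is given as 27 bases, written as DNA in the direction of the transcript, with the 6 bases of the loop in capitals.
Ftl1, 5′ UTR, chr7:45459780-45459806, minus strand: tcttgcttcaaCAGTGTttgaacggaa
Fth1, 5′ UTR, chr19:9982733-9982759, plus strand: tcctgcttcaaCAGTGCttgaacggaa
Slc40a1, 5′ UTR, chr1:45925466-45925492, minus strand: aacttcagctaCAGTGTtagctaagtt
Tfrc, 3′ UTR, chr16:32631220-32631246, plus strand: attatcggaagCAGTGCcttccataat
Tfrc, 3′ UTR, chr16:32631599-32631625, plus strand: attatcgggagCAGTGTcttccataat
Tfrc, 3′ UTR, chr16:32631664-32631690, plus strand: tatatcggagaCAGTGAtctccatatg
Tfrc, 3′ UTR, chr16:32631711-32631737, plus strand: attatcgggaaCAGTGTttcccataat
Slc11a2, 3′ UTR, chr15:100395154-100395180, minus strand: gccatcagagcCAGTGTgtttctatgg

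Ftl1, Fth1 and Slc40a1 each held 1 such site and Tfrc held 4, all with 5 of 5 pairs. Slc11a2 held 1 site with 4 pairs. No site passing the search was found in Trf, Ireb2, Aco1 or Hmox1. The loop and bulge alone are common: they were present in 66.9% of the 17444 leading protein-coding transcripts (the transcript of a gene with the highest share of its TPM) and in the leading transcript of all 9 iron genes. With 4 or 5 pairs the share was 9.88% of those transcripts, and with 5 pairs it was 1.28%, against the leading transcripts of 4 of the 9 iron genes for either requirement, since the site of Slc11a2 is not in its leading transcript. The element was already known in several of these mRNAs, so nothing is read from the 4 of 9 beside these shares. A match is a description of the letters and was not a test of binding.

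Ferritin RNA stood far above the rest. Ftl1, the ferritin light chain, which helps form the iron core, was listed at 4788 TPM in replicate 1 and 4532 TPM in replicate 2, with 4660 ± 181 TPM (SD, n = 2) as mean and SD. It ranked 5 of 22015 nuclear protein-coding genes by mean TPM, with Hbb-y, an embryonic globin, and Tmsb4x, an actin-binding thymosin, just above it and Tmsb10, another thymosin, just below. Fth1, the ferritin heavy chain, which oxidises ferrous iron on entry to the shell, was at 1078 TPM in replicate 1 and 1036 TPM in replicate 2, with 1057 ± 29.9 TPM as mean and SD, and rank 51. Its nearest neighbours in level were Map1b, a microtubule-associated protein of axons, and Rps19, a ribosomal protein. Reads of Ftl1 and Fth1 came to 86586 and 18737 in replicate 1 and to 84698 and 18660 in replicate 2, so counting error is small beside the difference between libraries. The ranges of Ftl1 and Fth1 did not overlap.

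The light chain made up most of the ferritin RNA. Within a library, Ftl1 was 81.6% of the ferritin TPM in replicate 1 and 81.4% in replicate 2. The log2 ratio of Fth1 over Ftl1 was −2.14 ± 0.02 (SD, n = 2), so Ftl1 was 4.41-fold higher by the means. Together both chains gave 96.7% of the summed TPM of the 9 genes in replicate 1 and 96.4% in replicate 2. The other 7 genes summed to 199 TPM in replicate 1 and 209 TPM in replicate 2.

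Of the other genes named for ferritin, one lay above Ireb2 and the rest were low or at 0. Of 14 such genes in the M21 annotation, 10 had 0 counts in both libraries, which allows up to 3 counts per library, and these included all 9 genes named Fthl17. Ftl1-ps1, a copy of Ftl1 that is annotated as protein-coding despite its name, at chr13:74399694-74407346, was listed at 81.4 TPM in replicate 1 and 72.3 TPM in replicate 2. Its counts equalled 1.64% of those of Ftl1 in replicate 1 and 1.55% in replicate 2, and its annotated 5′ untranslated region carries the same 27 bases as printed for Ftl1. Ftl2-ps was at 3.15 TPM and 6.17 TPM in replicates 1 and 2, Fth-ps2 at 0.34 TPM and 1.88 TPM, and Ftl1-ps2 at 0.23 TPM and 0.36 TPM. Reads shared between such copies and their parent were divided by an estimate, so the values of the copies are uncertain. Adding their counts to the parent moved Ftl1 to 4737 TPM and Fth1 to 1058 TPM.

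One further gene inside Ftl1 was picked out after its values were seen. Gm22133, annotated as a miRNA gene at chr7:45458089-45458197 on the same strand as Ftl1, was listed at 3498 TPM in replicate 1 and 3522 TPM in replicate 2. These values rest on 733 and 763 estimated reads, 0.846% and 0.901% of the count of Ftl1, divided by an effective length of 10 bases. The level of Gm22133 is therefore set by its short length, and whether its reads came from Ftl1 mRNA was not tested.

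Uptake genes were at intermediate levels. Tfrc, the transferrin receptor, was at 38.2 TPM in replicate 1 and 38.3 TPM in replicate 2, with 38.3 ± 0.0849 TPM (SD, n = 2) as mean and SD, and rank 4500. Trf, transferrin itself, was at 19.98 TPM in replicate 1 and 20.8 TPM in replicate 2, with 20.4 ± 0.566 TPM as mean and SD, and rank 6913. Receptor RNA was above ligand RNA in both libraries, with a log2 ratio of Tfrc over Trf of 0.91 ± 0.04 by gene TPM. The leading coding transcripts were at 23.2 TPM for Tfrc and 15.1 TPM for Trf in replicate 1. In replicate 2 they lay further apart, at 26.2 TPM and 12.1 TPM. The SD of the gene ratio does not cover how reads were divided among transcripts. Slc11a2, the divalent metal transporter of endosomes, was at 18.7 TPM and 21.3 TPM in replicates 1 and 2, a mean of 20.0 ± 1.89 TPM.

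Slc40a1, ferroportin, the cellular iron exporter, was at 18.9 TPM in replicate 1 and 19.2 TPM in replicate 2, with 19.0 ± 0.163 TPM as mean and SD, and rank 7165. Its range lay inside that of the importer Slc11a2, and the log2 ratio of Slc11a2 over Slc40a1 was 0.07 ± 0.12, with −0.02 in replicate 1 and 0.16 in replicate 2. By gene TPM, import and export RNA therefore did not differ beyond the spread of the libraries. The gene TPM of Slc11a2 includes short transcripts, at 1.16 TPM in replicate 1 and 5.33 TPM in replicate 2. Its long coding transcripts together were at 17.51 TPM in replicate 1 and 16.02 TPM in replicate 2. The leading coding transcript of Slc40a1 was above them in both libraries, at 18.34 TPM and 18.44 TPM. The comparison thus depends on which transcripts are counted. RNA for storage lay above RNA for uptake: Ftl1 was 122-fold ± 5.00 above Tfrc within a library, and the log2 ratio of Tfrc over Fth1 was −4.79 ± 0.04.

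The iron regulatory proteins were close to each other. Ireb2, iron regulatory protein 2, which is degraded when iron is plentiful, was at 46.6 TPM in replicate 1 and 50.9 TPM in replicate 2, with 48.8 ± 3.03 TPM as mean and SD, and rank 3662. Aco1, iron regulatory protein 1, which acts as cytosolic aconitase when it holds an iron-sulfur cluster, was at 45.8 TPM and 46.2 TPM, a mean of 45.96 ± 0.269 TPM and rank 3847. Their log2 ratio was 0.08 ± 0.08, and with the older M4 annotation the order of the means turned, to 47.9 TPM for Ireb2 and 48.3 TPM for Aco1. No order of the pair can be read from these libraries.

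Hmox1, heme oxygenase 1, the inducible enzyme that opens the heme ring and releases its iron, was the lowest of the 9. It was at 10.98 TPM in replicate 1 and 11.9 TPM in replicate 2, with 11.5 ± 0.672 TPM (SD, n = 2) as mean and SD, and rank 8943. Its counts of 338 and 380 reads are also the smallest of the 9, with a 95% counting interval of 9.84 to 12.2 TPM in replicate 1 and 10.8 to 13.2 TPM in replicate 2. Intervals of this kind cover counting error only, since amplified reads are not independent molecules.

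**Figure D1:**
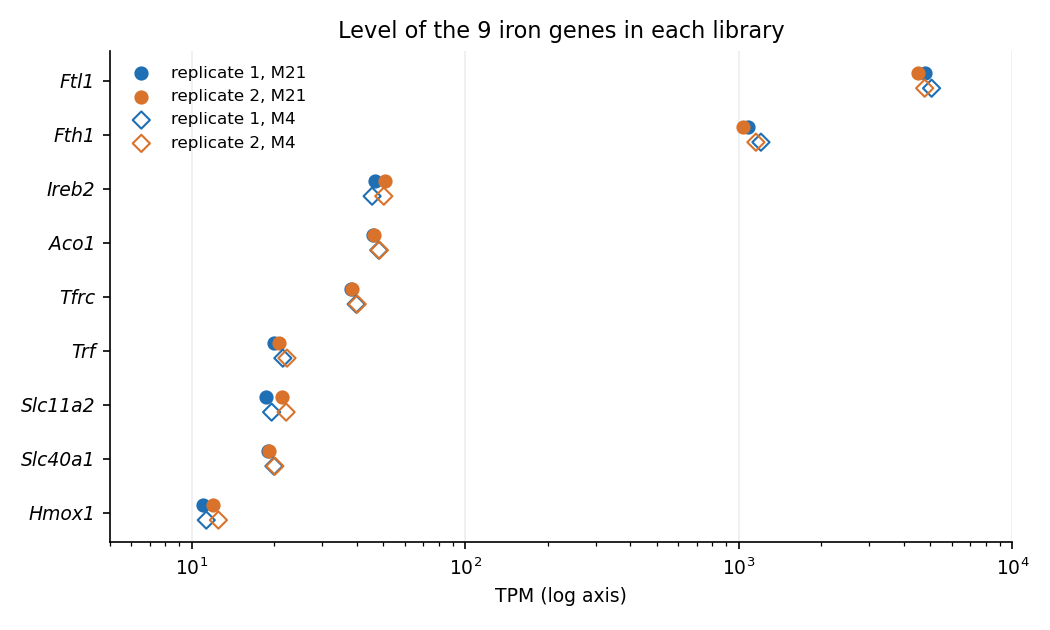
TPM of each iron gene on a log axis, one point per library, with filled circles for the M21 gene tables and open diamonds for the M4 gene tables (blue, replicate 1, orange, replicate 2). Ftl1 and Fth1 lie at or above 1036 TPM in both libraries, and the other 7 genes lie between 10.98 and 50.9 TPM in M21.

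For 6 of the 9 genes the deposited posterior SD of the count was 0 in both libraries, so the estimate of the gene count carried no spread from shared reads. The others were Trf, whose case is given with its transcripts, Ftl1 with 67.6 and 69.6 reads, and Fth1 with 0.95 and 1.14 reads. In descending order the means were Ftl1, Fth1, Ireb2, Aco1, Tfrc, Trf, Slc11a2, Slc40a1 and Hmox1. The libraries' ranges overlapped for the neighbours Trf and Slc11a2 and for Slc11a2 and Slc40a1, and for no other neighbours. The step from Fth1 to Ireb2 was 21.7-fold and the widest in the order. All 9 genes reached 10 TPM in both libraries, where 41.7% of the 22015 nuclear protein-coding genes did, and the ferritin pair alone reached 100 TPM, where 7.25% did. The median level of the 9 was 38.3 TPM, against 21.6 TPM for the 13401 protein-coding genes at 1 TPM or more in both libraries (60.9%). Because the 9 were chosen with levels known, nothing is read from these shares. The genes nearest in mean TPM, a likeness over 2 libraries of 1 tissue, are given as 1 above and 1 at or below. They were Apc and Mri1 for Ireb2, Gnb4 and Chmp1b for Aco1, Pdlim4 and Rbfox3 for Tfrc, and Krcc1 and Pdzrn3 for Trf. For the rest they were Slco5a1 and Smg8 for Slc11a2, Ttl and Foxj3 for Slc40a1, and Gm2a and Sfxn4 for Hmox1. Pdzrn3 equalled Trf in mean TPM, and Smg8 and Hist1h2ai equalled Slc11a2. Dip2a tied with Sfxn4.

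The tissue holds cells other than neural ones, and in bulk RNA fewer cells of a type and less RNA per cell cannot be told apart. Of the fixed markers, all 6 of neural progenitors (led by Fabp7, Vim and Hes5) and all 5 of neurons (led by Tubb3, Stmn2 and Elavl4) reached 1 TPM in both libraries, as did all 3 Hox genes of the spinal cord. All 10 erythroid markers were also present, led by Hbb-y, Hba-a2 and Hba-a1, with a summed level of 13298 TPM in replicate 1 and 12780 TPM in replicate 2. Maturing red cells are known for high Tfrc and ferritin RNA, and the part of blood in the levels of Ftl1, Fth1 and Tfrc was not tested. Macrophage and microglial markers summed to 85.3 TPM and 93.1 TPM, with 9 of 10 present and led by C1qb, C1qc and C1qa. Macrophages are known to express Hmox1 and Slc40a1, and their part in those levels was not tested. Endothelial markers, led by Cldn5, Esam and Kdr, summed to 159 TPM and 170 TPM, with 8 of 8 present.

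Other known sources of transferrin are the liver, which supplies that of blood, and, in the rat, the choroid plexus. Liver markers summed to 15.4 TPM in replicate 1 and 9.17 TPM in replicate 2, led by Apoa2, Afp and Apoa1, with 3 of 8 at 1 TPM in both libraries and Apoh and Serpina1a at 0 in replicate 2. None of the 6 choroid plexus markers reached 1 TPM in both libraries, their sums were 1.66 TPM and 2.56 TPM, and Kcnj13, Clic6 and Folr1 led the list. Oligodendrocytes, the main source of transferrin in the mature brain, had 4 of 6 markers above 1 TPM and sums of 87.0 TPM and 102 TPM. Cnp and Sox10 were among its highest, while Mog and Mag, which mark mature cells, were at or below 1.01 TPM in each library.

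Transcript tables add which form of each gene the reads were assigned to. A single transcript carried 96.6% to 100% of the gene's TPM, as the mean of the 2 libraries, for Ftl1, Fth1, Slc40a1, Aco1 and Hmox1. For Ireb2 it carried 93.9%. Trf, Tfrc and Slc11a2 were mixtures. The same transcript led each of the 9 genes in the M4 tables.

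Slc11a2 comes in forms that end differently, and only one ending carries the hairpin. The transcript without it, ENSMUST00000023774, was at 9.46 TPM in replicate 1 and 8.84 TPM in replicate 2. The transcript with it, ENSMUST00000138843, was at 8.05 TPM and 7.18 TPM. The form with the hairpin was thus 45.97% of the pair in replicate 1 and 44.8% in replicate 2, a mean of 45.4% ± 0.817 (SD, n = 2), and its log2 ratio to the other form was −0.27 ± 0.05. It was the lower form in both libraries.

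The gene level of Slc11a2 was higher in replicate 2, yet both of its long transcripts were lower there. The remaining, short transcripts rose from 1.16 TPM in replicate 1 to 5.33 TPM in replicate 2, on 9.51 and 57.3 estimated reads. The rise in the gene's TPM lies in these short forms, whose counts carry posterior SDs of up to 16.5 reads. By counts, which are not divided by length, Slc11a2 was slightly lower in replicate 2.

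Trf showed the same pattern. Its long coding transcript ENSMUST00000035158 was at 15.1 TPM in replicate 1 and 12.1 TPM in replicate 2. The retained-intron transcript of 433 bases, ENSMUST00000190051, was at 4.92 TPM and 8.32 TPM, on 34.4 and 60.2 reads. This short form, singled out after its values were seen, was 24.6% of the gene's TPM in replicate 1 and 40.0% in replicate 2. The coding transcript alone was lower in replicate 2 while the TPM of the gene was higher.

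Trf also shares its locus with Gm20425, a protein-coding gene model on the same strand that overlaps most of Trf, and reads were divided between them. Trf was given 814 reads in replicate 1 and 713 in replicate 2, with posterior SDs of 57.8 and 49.3 reads, which are 7.10% and 6.91% of the counts. Gm20425 was given 222 and 367 reads. The share of Trf in the sum was 78.6% in replicate 1 and 66.0% in replicate 2, while the sum itself had a log2 ratio of replicate 2 over replicate 1 of −0.03. The lower count of Trf in replicate 2 was matched by a higher count of the overlapping model.

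Tfrc reads were assigned mainly to the full coding transcript ENSMUST00000023486, which carries all 4 hairpins, at 23.2 TPM in replicate 1 and 26.2 TPM in replicate 2. The retained-intron transcript, ENSMUST00000128285, which contains the same 4 hairpins without an annotated coding sequence, was at 8.22 TPM and 7.94 TPM. Retained-intron forms together were 35.5% of Tfrc TPM in replicate 1 and 31.6% in replicate 2. Transcripts of any kind with a hairpin made up 82.3% and 89.1% of Tfrc. That share was 97.6% and 97.3% for Ftl1, 99.1% and 99.2% for Fth1, and 99.2% and 98.3% for Slc40a1. For Slc11a2 it was lower, at 43.1% and 33.6%. These are shares of TPM assigned to annotated transcripts, so a form that is not annotated could not be seen. For Slc40a1, the annotated transcripts without the hairpin were only 263 to 505 bases long.

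**Figure D2:**
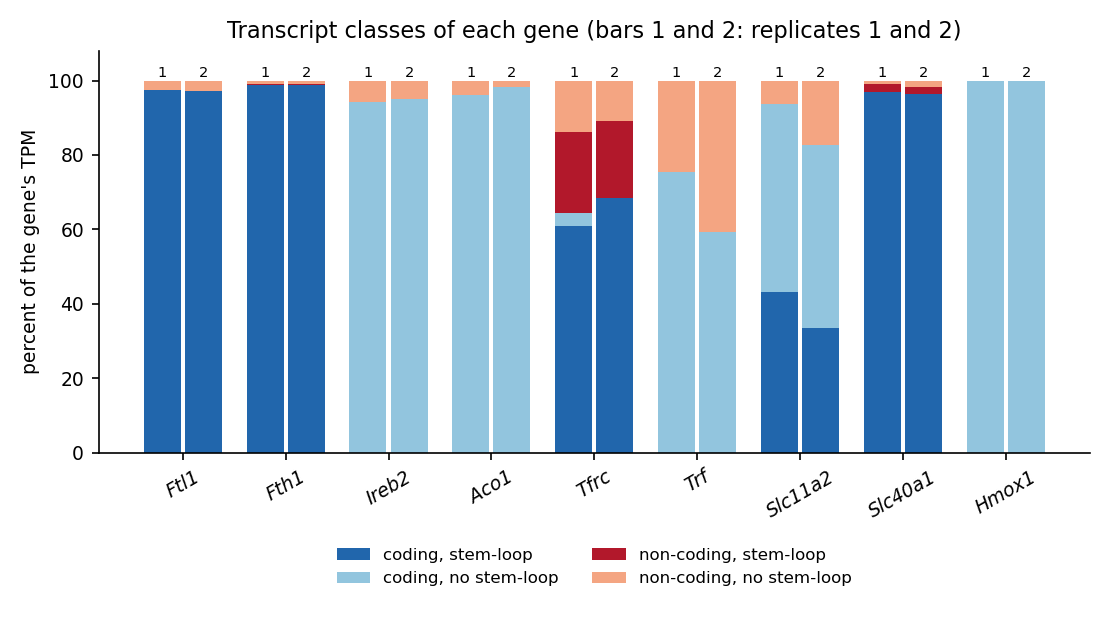
Percent of each gene's TPM in coding and other transcripts with a stem-loop of at least 4 pairs (dark blue, coding, red, other) and without one (light blue, coding, orange, other), with a bar for each replicate. Nearly all TPM of Ftl1, Fth1 and Slc40a1 is assigned to annotated transcripts that contain the hairpin. Slc11a2 is divided, and the orange part of Trf is larger in replicate 2.

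The libraries were then set side by side, with 1 library on each side and hence no test. Ratios were taken from rounded estimated counts with TMM scaling (a correction for library size and composition) over the 20125 genes that had 10 or more counts in either of them, and a gene was counted as past the fold at 1.3-fold. None of the 9 iron genes was past it in either direction, where 19.4% of all genes were, 8.17% higher and 11.2% lower in replicate 2. Under ERCC spike-in scaling the split of all genes was 2015 higher and 1980 lower, in place of 1644 and 2262. Among the 9835 genes at a mean of 10 TPM or more, the level of the iron genes, 2.35% were past it. The median absolute log2 ratio was 0.10 for the 9 genes, 0.13 for all genes and 0.07 for those at 10 TPM or more, so the median of the iron genes lay between these.

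Trf had the widest difference, a log2 ratio of replicate 2 over replicate 1 of −0.28 with a counting interval of −0.43 to −0.13. That interval leaves out the uncertainty of dividing reads with Gm20425. With the reads of Gm20425 added to those of Trf, the ratio was −0.03. By counts, 4 of 8 liver markers were lower in replicate 2 past 1.3-fold, beside 11.2% of all genes. These 4 were at or below 5.92 TPM in each library, and the other 4 had too few counts for a ratio. The part of liver RNA in the ratio of Trf was not tested. Ftl1 was at −0.12 and Fth1 at −0.10. The 10 erythroid markers had a median log2 ratio of −0.00 on the same scale, with Hba-a1 and Hba-a2 at −0.14 and Slc4a1 at 0.29, and their part in the ferritin ratios was not tested. Slc11a2 was at −0.12, Slc40a1 at −0.03 and Aco1 at −0.00.

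The 3 genes higher in replicate 2 were Ireb2 at 0.10, with a counting interval of 0.04 to 0.15, Tfrc at 0.08, with 0.01 to 0.15, and Hmox1 at 0.08, with −0.14 to 0.30. Scaling by the ERCC spike-ins put the median of all genes at 0.05 on the log2 scale, in place of −0.00, and turned Aco1 and Slc40a1 to 0.05 and 0.02. Ratios of deposited TPM put Trf at 0.06, Slc11a2 at 0.19, Aco1 at 0.01 and Slc40a1 at 0.02, so no direction between libraries is given for these 4 genes. The other 5 kept their sign under both scalings with other sizes: ERCC scaling gave −0.06 for Ftl1, −0.04 for Fth1, 0.14 for Tfrc, 0.15 for Ireb2 and 0.14 for Hmox1, and deposited TPM gave −0.08, −0.06, 0.0045, 0.13 and 0.12 in the same order.

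**Figure D3:**
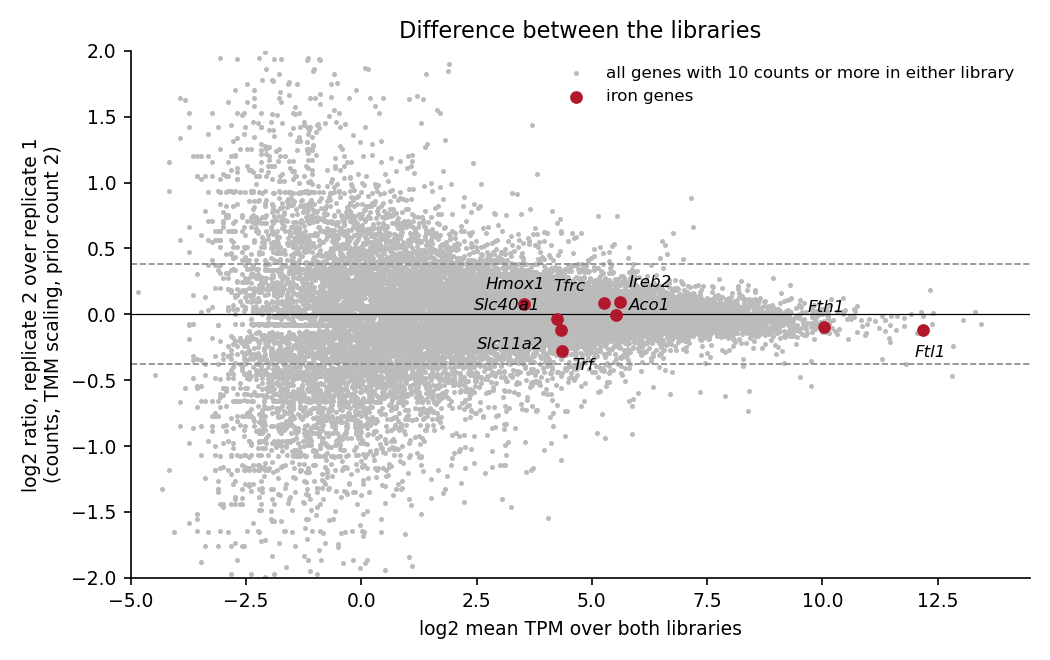
Log2 ratio of replicate 2 over replicate 1 against log2 mean TPM for 20125 genes (grey) and the 9 iron genes (red), with dashed lines at 1.3-fold and with 128 genes beyond a log2 ratio of 2 not drawn. All 9 iron genes lie between the dashed lines, with Trf lowest at −0.28.

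Other iron and heme genes were taken from 8 lists of 105 measured genes, each gene counted once. At 1 TPM or more in both libraries, the threshold passed by 60.9% of nuclear protein-coding genes, 86 of the 105 were expressed. At 10 TPM or more in both libraries, passed by 41.7% of nuclear protein-coding genes, the number was 66. None lay above Fth1, and 33 lay above Ireb2. Of 92 with a ratio between libraries, 4 were past 1.3-fold higher in replicate 2 and 4 lower, beside 8.17% and 11.2% of all genes. None of these 8 had a mean of 10 TPM or more.

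Uptake beyond transferrin and its receptor was present in 10 of 12 genes. The endosomal sorting genes Snx3 and Vps35, which return the receptor to the cell surface, led at 176 ± 2.10 TPM and 131 ± 12.1 TPM (SD, n = 2). Picalm, a clathrin adaptor, was at 35.2 TPM and Slc39a8, a metal transporter, at 12.1 TPM. The reductases that prepare iron for transport were low, with Steap3, the reductase of red cell precursors, at 1.45 TPM, and Cybrd1 and Steap4 the lowest of the list at 0.53 TPM and 0.31 TPM. Tfr2, the receptor form of liver and red cell precursors, was at 1.43 TPM.

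Ferritin handling divided into present and listed at 0. The poly(rC)-binding chaperones that deliver iron to ferritin were at 459 ± 14.8 TPM for Pcbp1, 283 ± 3.96 TPM for Pcbp4, 116 ± 3.995 TPM for Pcbp2 and 81.0 ± 10.9 TPM for Pcbp3. Ncoa4, the receptor that takes ferritin to lysosomes, was at 70.5 ± 0.905 TPM, and Herc2, a ligase that acts on Ncoa4, at 29.4 TPM. Mitochondrial ferritin, Ftmt, and the Fthl17 genes of the list had 0 counts, which left 6 of 13 expressed.

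Genes that act on the iron regulatory proteins, or share their hairpin, were expressed in 10 of 10 cases. Fbxl5, the iron-sensing subunit that marks iron regulatory protein 2 for degradation, was at 46.96 ± 0.608 TPM, close to its target Ireb2. The ligase components Skp1a, Rbx1 and Cul1 were at 796 TPM, 388 TPM and 127 TPM. Cdc14a, a phosphatase, was at 13.7 TPM, and the lowest was Epas1, a hypoxia factor, at 3.09 TPM.

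Of the export and systemic list, 8 of 17 genes were expressed. Lrp1 and Neo1, receptors with many ligands, led at 71.4 TPM and 44.6 TPM. The ferroxidases that work beside ferroportin were at 6.81 ± 0.0283 TPM for Heph and 2.70 ± 0.339 TPM for Cp, and Hfe, a partner of the transferrin receptor, was at 3.07 TPM. Hamp, the liver hormone hepcidin, was listed at 0 in replicate 1 and 0.15 TPM in replicate 2. Hamp2 was at 0 in both and Cd163, the hemoglobin receptor of macrophages, at 0.005 TPM.

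Mitochondrial iron and heme genes were expressed throughout. All 20 measured genes of iron-sulfur cluster assembly were above 1 TPM, from Hspa9, a chaperone, at 150 TPM, Glrx5 at 147 TPM, Isca2 at 124 TPM and Isca1 at 98.6 TPM to the mitochondrial iron importer Slc25a37 at 8.62 TPM near the low end. All 10 heme synthesis genes reached 10 TPM in both libraries, where 41.7% of nuclear protein-coding genes did. They were led by Tmem14c at 123 TPM, with Alas1 at 76.4 TPM and Urod at 69.8 TPM also high. Alas1, the general form of the first enzyme, stood above Alas2, its red cell form, which was at 24.9 ± 0.467 TPM, and Cpox was lowest at 16.1 TPM.

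Heme breakdown was led by the constitutive enzyme. Hmox2 was at 70.3 ± 1.03 TPM, above the inducible Hmox1 in both libraries, since its lower value of 69.6 TPM exceeded the 11.9 TPM of Hmox1. Keap1 and Bach1, which hold back Hmox1 transcription, were at 42.8 TPM and 18.9 TPM, and Nfe2l2, which activates it, was at 15.4 TPM. Slc48a1, a heme transporter, was at 33.9 TPM and Abcg2, an exporter, at 33.2 TPM. The lowest were Flvcr2 at 2.13 TPM and Maff at 0.90 TPM, the single gene of the 13 under the threshold. All 11 genes tied to iron-dependent oxidative death were expressed, with Gpx4, the lipid peroxidase that guards against it, at 398 ± 7.01 TPM, Txnrd1 at 126 TPM, Slc3a2 at 115 TPM and Gclm at 49.6 TPM, and with Nqo1 and the cystine importer Slc7a11 lowest at 2.88 TPM and 2.82 TPM.

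**Figure D4:**
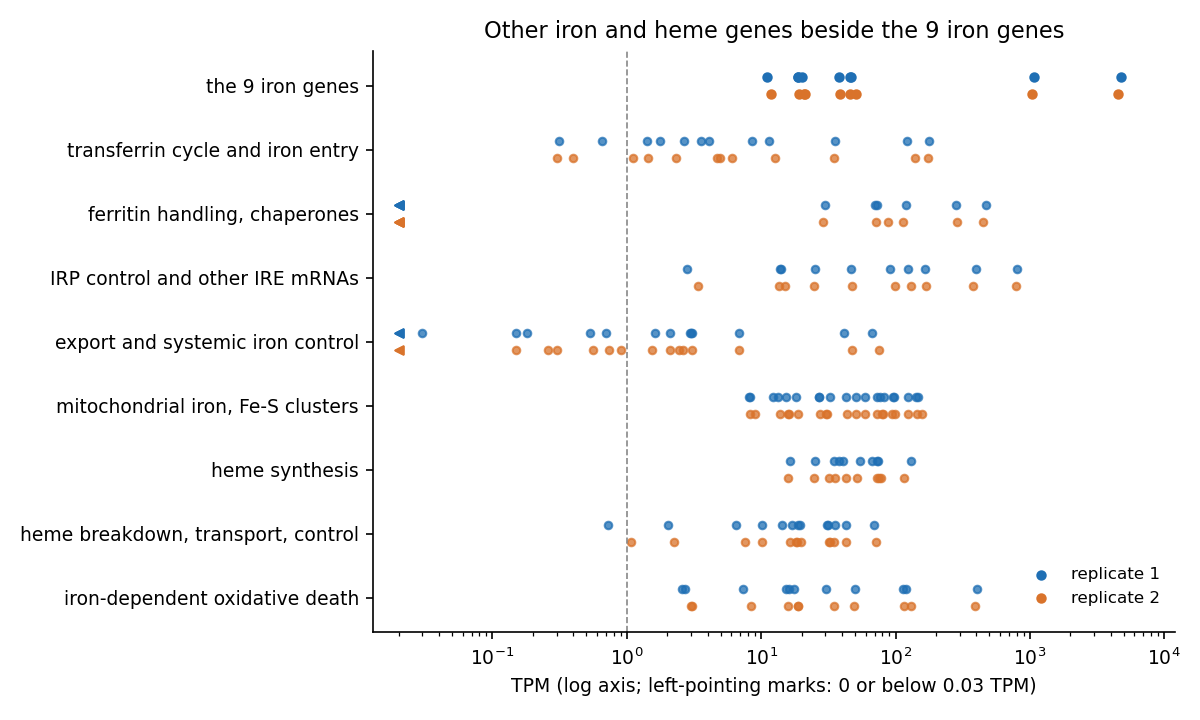
TPM on a log axis of each gene of the 8 lists and of the 9 iron genes, one point per gene and library (blue, replicate 1, orange, replicate 2), with the dashed line at 1 TPM and left-pointing marks for values of 0 or below 0.03 TPM. No listed gene reaches Fth1 or Ftl1, and the export and systemic list has the most genes left of the line.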

How the data were processed

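Poly(A) RNA-seq of the embryonic neural tube was deposited as 2 libraries, each with gene and transcript tables for GENCODE M21 and M4 on mm10, per the notes deposited with them. Per the file headers, the authors' tables give an estimated count of reads per gene or transcript, not normalized. They also give TPM, a posterior standard deviation of the count (a score in reads, per the file headers) and, for transcripts, the percent of the gene's abundance that each takes, as deposited. Which aligner and quantifier were used, and whether counting used strand, is not given in the sources used here; the kits named in the labels do not mark strand, so overlapping genes on opposite strands cannot be told apart. The deposited counts summed to 33529531 in replicate 1 and 35461403 in replicate 2, of which rows that name no gene, nearly all ERCC spike-ins, took 2.99% and 2.89%. A read on a transcript of 1 kb was worth 0.0477 TPM and 0.0462 TPM.

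The members and lists were chosen with earlier results of these data known. All 55536 M21 identifiers were named by the M21 annotation. Hjv, Fam132b and Fam96b of the lists were not matched as symbols, but these genes were measured under their other symbols Hfe2, Erfe and Ciao2b. Estimated counts were rounded, filtered at 10 counts in either library, scaled by TMM in edgeR 4.0.16 (R 4.3.3) and turned into log2 ratios with a prior count of 2, with rows that name no gene left out. Intervals are 95% exact counting intervals. The ratios were also taken on simulated counts that hold counting error only, without the spread of pools or amplification. There 9.95% of the unchanged genes were past 1.3-fold, as were 86.2% of the genes changed 1.5-fold. Alternatives used DESeq2 1.42.0 size factors, ERCC totals, TPM with a pseudocount of 0.1, M4 tables and posterior means. Named are the 9 genes, up to 4 highest and the 2 lowest genes of each list, all ferritin-named genes that were above 0, level neighbours and the 3 highest markers of each list, a few of which are not reported here; genes overlapping members, short transcripts and other list genes given for their role (Ncoa4, Herc2, Fbxl5, Alas2, Cp, Hamp, Steap3, Tfr2, Bach1, Nfe2l2) were added after values were seen. Tables and plots were made with Python 3.11.15 and matplotlib 3.10.9.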

Additional observations from a re-analysis of the deposited data

How the results depend on the processing

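The 2 libraries are pools of 1 group, so the SDs cannot separate embryos from preparation, and no paired analysis was possible because there is 1 group. All 9 iron genes reached 10 TPM under the M4 tables and under 2 alternatives chosen after seeing the data (TPM rescaled over nuclear protein-coding genes, and posterior means); at a threshold of 100 TPM, 2 did. Levels were 0.983 to 1.11 times the main values in M4, 0.968 to 1.08 times with posterior means and 1.24 times when scaled over protein-coding genes. Within-library log2 ratios moved as follows. Fth1 over Ftl1 was −2.06 in M4 and −2.20 from counts without division by length. Tfrc over Trf was 0.87 in M4, 0.79 from posterior means and 2.05 from counts. Ireb2 over Aco1 turned to −0.014 in M4 and was 0.69 from counts. Tfrc over Fth1 was −4.88 in M4 and −2.56 from counts, and Ftl1 over Tfrc was 4.76 from counts. Count ratios leave gene length in, which by construction favours long transcripts; the cause of the M4 and posterior mean shifts was not tested. Leaving out a library gave −2.15 to −2.13 for Fth1 over Ftl1, 0.88 to 0.94 for Tfrc over Trf, −0.02 to 0.16 for Slc11a2 over Slc40a1, 0.03 to 0.14 for Ireb2 over Aco1, −4.82 to −4.76 for Tfrc over Fth1 and 6.89 to 6.97 for Ftl1 over Tfrc. Genes past the fold between libraries numbered 3906, and 11504 with no filter on low counts, 744 at 100 counts and 2255 at 1.5-fold, which follow from the genes and fold admitted. At 5 TPM, 5 genes of the transferrin list and 3 of the export list counted as expressed, against 10 and 8 at 1 TPM.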
